A study of Homo sapiens with 38 samples.

Results

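RWPE-1 cells from which the 7p15.2 region linked to prostate cancer risk had been deleted were compared with RWPE-1 controls by RNA sequencing. These cells come from normal human prostate epithelium, were immortalized in culture and do not form tumours. The comparison took every library carrying the deletion (7) and every control of the same experiment (5), which are 12 of the 38 samples of the series. Both groups bear the label Genome Editing. The genotype of the deletion libraries is given as 7p15.2 risk region deleted and that of the controls as wild type. No label says whether the libraries of a group came from separate clones or cultures, so the p-values below measure the spread between these libraries, which may be technical. Expression was read as TPM, a gene's share of the transcripts in a library after correction for transcript length. A gene was tested when it reached a TPM of 1 in at least 5 of the 12 libraries, which 14186 of 60252 genes did. A difference is the mean log2(TPM + 1) of deletion libraries minus that of controls, so positive values are higher in the deletion libraries. It understates the change of genes near or below 1 TPM.

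The risk region lies near the HOXA cluster, a row of homeobox genes that give cells their position along the body axis, and the study asked how the region acts on HOXA13, the cluster's last gene and a factor of the limb buds and the urogenital tract. Homeobox factors act through many target genes, so the search for changes ran over all chromosomes. The prostate epithelium is made of luminal cells that secrete and of basal cells that sit on a basement membrane, bound to it by hemidesmosomes and to each other by desmosomes and adherens junctions. Basal cells also answer growth factors of the EGF family, store zinc and copper in metallothioneins, and make acute-phase and complement proteins when NF-kB is active. The gene groups below follow these roles. In bulk RNA fewer cells of a type and less RNA per cell cannot be told apart.

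The 12 libraries were alike in scope, with 13818 to 14209 genes at 1 TPM or more and 13.5% to 15.9% of the TPM in the 10 most abundant genes. Their markers were those of basal prostate cells: KRT5, a basal keratin, stood at 6697 to 9187 TPM in deletion libraries and 5962 to 10310 TPM in controls, and TP63, the basal master factor, at 56.2 to 90.9 TPM and 34.0 to 117 TPM. Of 15 luminal markers 4 were measured and 0 called, and their sum was 557 to 847 TPM in deletion libraries and 330 to 701 TPM in controls. KRT8 and KRT18, keratins of simple epithelia, made up nearly all of it, with 338 to 526 TPM against 144 to 460 TPM for KRT8 and 210 to 315 TPM against 184 to 294 TPM for KRT18, while the secretory marker KLK3 reached at most 0.26 TPM. The luminal factor FOXA1, too low to be tested, stood at 0.17 to 1.01 TPM in deletion libraries and 0.00 to 0.04 TPM in controls, without overlap. With no filter on low values 1 luminal marker was called higher. The endothelial marker VWF and the leukocyte marker PTPRC reached at most 0.16 TPM and 0.02 TPM. Of 8 immune markers 2 were measured and 0 called. CD68 stood at 18.8 to 50.2 TPM in deletion libraries and 9.88 to 50.4 TPM in controls, and CD14 at 3.24 to 5.29 TPM and 1.64 to 11.9 TPM. HOXA13 ran from 5.27 to 10.1 TPM in deletion libraries and from 0.65 to 2.41 TPM in controls. HOXA13 is the gene the study asked about, and no value inside the deleted region was used here, so the deletion itself was not checked. Some libraries stood apart by chromosome. In deletion 4 the median gene of chromosome 10 lay 0.44 above the control mean and that of chromosome 15 lay 0.47 below it (difference of -0.472 in log2(TPM + 1)). In control 4 the median gene of chromosome 22 stood at -0.31. On chromosome 17 the controls were divided, with -0.07 and -0.14 in controls 1 and 2 and 0.06 to 0.10 in the others. Chromosome 5 was low in all 7 deletion libraries, between -0.45 and -0.35, and stood between -0.06 and 0.04 in the controls. The deletion and this drop thus came together, and their parts in the differences at other genes cannot be told apart. On the 19 chromosomes other than 5, 10, 15 and 22, medians of single libraries stayed between -0.14 and 0.17. Controls varied more than deletion libraries, with a median SD of 0.202 against 0.145 and the larger SD at 71.3% of genes.

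**Figure D1:**
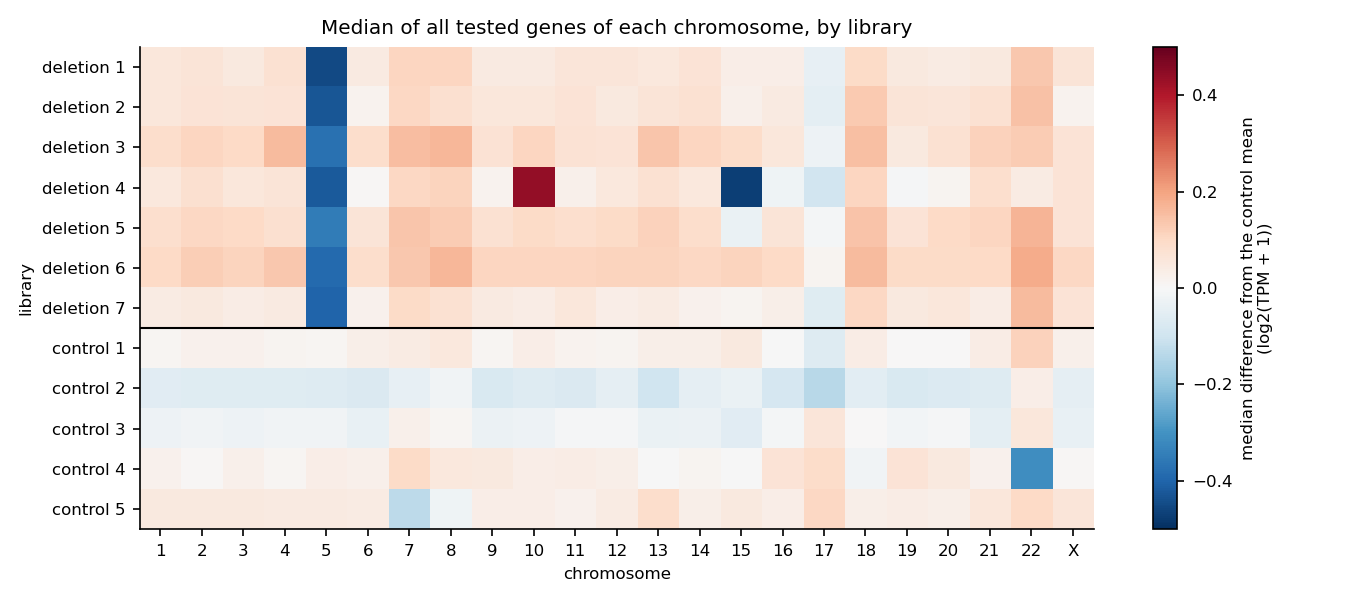
Each cell is the median, over the tested genes of a chromosome (x axis), of a library's difference from the control mean in log2(TPM + 1), for the 7 deletion and 5 control libraries (y axis). Chromosome 5 lies between -0.45 and -0.35 in every deletion library, deletion 4 stands at 0.44 on chromosome 10 and at -0.47 on chromosome 15, and control 4 at -0.31 on chromosome 22.

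Outside chromosome 5 and the HOXA cluster 902 of 13573 tested genes were called higher in the deletion libraries (6.65%) and 234 lower (1.72%), at an adjusted p under 0.05 in limma with Benjamini-Hochberg adjustment. Together they were 8.37% of these genes. Over all genes the shares were 6.46% higher and 3.86% lower, 10.3% together, and the median difference was 0.05. The counts of the gene lists below are to be read against these shares. A called difference of at least 2-fold was seen at 99 genes higher (0.729%) and 48 lower (0.354%). On the 19 chromosomes other than 5, 10, 15 and 22, HOXA left out, 802 genes were called higher and 193 lower of 11069. Chromosome 17 had 44 lower genes of 792 (5.56%). Chromosome 18 had 27 higher genes of 195 (13.8%) and 2 lower, and chromosome 4 had 51 higher of 456 (11.2%) and 10 lower. The split moved with the scaling. After median-ratio scaling the calls outside chromosome 5 and HOXA were 587 higher and 353 lower, which took the lower share from 20.6% to 37.6%. It was 32.0% after quantile normalization and 31.5% without control 3, which gave 1139 higher and 524 lower genes. With 6 deletion libraries and controls 1 to 3, which leaves out deletion 4 and controls 4 and 5 and was chosen after the data were seen, 664 genes were higher and 134 lower.

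The genes with the largest differences were taken as the 15 largest each way among called genes whose groups did not overlap, a condition met by 5.16% of tested genes outside chromosome 5 and HOXA and 6.7% of all, and whose higher group reached a mean of 5 TPM. After ADGRL2, an adhesion receptor of the latrophilin kind, SPON2, UCHL1, MAL2, LAMB2, ZNF667-AS1 and ZNF486, the higher genes were NOTCH3, PRSS3, PODXL, FLRT3, TMEM200B, CA2, SERPINB3 and TFPI2. PODXL, a sialomucin of the apical cell surface, had its lowest, median and highest deletion values at 7.16, 13.2 and 18.8 TPM, against 4.86, 4.40, 2.23, 2.94 and 1.15 TPM in controls 1 to 5 (difference 1.85, SE 0.263, adjusted p = 0.00101). FLRT3, a membrane protein that binds latrophilins and FGF receptors, ran from 16.5 over a median of 20.6 to 41.6 TPM against 5.15, 5.06, 10.97, 4.30 and 5.63 TPM (1.84, SE 0.250, adjusted p = 8.11e-04). TFPI2, a Kunitz inhibitor of matrix-bound serine proteases, ran from 40.1 over 51.5 to 93.0 TPM against 14.5 to 21.9 TPM (1.60, SE 0.209, adjusted p = 6.43e-04). In all 3 genes every deletion library lay above every control, which their choice required.

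SERPINB3, a squamous epithelial inhibitor of cysteine and serine proteases, stood at 38.9 ± 9.72 TPM (SD, n = 7) against 13.4 ± 7.62 TPM (SD, n = 5), a difference of 1.60 (adjusted p = 0.00620). CA2, a carbonic anhydrase, stood at 44.7 ± 22.9 TPM against 14.3 ± 7.85 TPM, a difference of 1.61 (adjusted p = 0.0144). PRSS3, the trypsin-like protease mesotrypsin, stood at 24.3 ± 17.4 TPM against 6.23 ± 4.75 TPM (1.93, adjusted p = 0.0223), its highest value being 62.6 TPM in deletion 4. TMEM200B, a membrane protein, stood at 6.36 ± 0.872 TPM against 1.45 ± 0.747 TPM (1.65, adjusted p = 3.34e-04). SERPINB3 and PRSS3 have near copies in the genome, so their reads may be shared with relatives. PRSS3 missed the threshold without control 1 (adjusted p = 0.0511) or control 2 (0.0596) and with no filter on low values (0.0580), and CA2 with 6 deletion libraries and controls 1 to 3 (0.104).

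Among the lower genes, after MT1L, SAA1, CLDN11, AVIL, THY1, DAPK1, FBLN2 and BIRC3, came C3, RTN4RL1, ECHDC2, METTL7A, VAMP5, FOXC2 and LHX6. FOXC2, a forkhead factor of mesenchyme and vessels, ran from 2.30 over a median of 4.58 to 5.87 TPM in deletion libraries against 12.99, 12.97, 7.65, 7.83 and 11.2 TPM in controls 1 to 5 (difference -1.17, SE 0.208, adjusted p = 0.00389). VAMP5, a vesicle SNARE protein, ran from 4.09 over 6.03 to 7.71 TPM against 21.7, 18.4, 9.98, 18.4 and 9.46 TPM (-1.20, SE 0.212, adjusted p = 0.00382). METTL7A, a protein of lipid droplets, stood at 3.71 ± 1.21 TPM against 10.1 ± 1.90 TPM (-1.26, adjusted p = 0.00134). No deletion library reached the lowest control in any of these, which their choice required. RTN4RL1, a receptor of the Nogo receptor family, stood at 1.59 ± 0.685 TPM against 6.06 ± 2.75 TPM (-1.39), and ECHDC2 at 6.51 ± 1.76 TPM against 17.6 ± 4.54 TPM (-1.31). LHX6, a LIM homeobox factor, gave -1.13 (adjusted p = 0.0430), and its control mean of 9.44 TPM rested on 24.3 TPM in control 3, the others being 4.75 to 6.91 TPM. LHX6 missed the threshold without any 1 of the 7 deletion libraries or control 2 (adjusted p up to 0.0806), with no filter on low values (0.0992), quantile normalization (0.0509) or chromosome 5 left out of the scaling (0.0554). Of the 30 genes, chosen for their large differences, 27 also had an adjusted p under 0.05 and the same sign in the authors' deposited table of this comparison. Among all 1120 genes called outside chromosome 5 and HOXA that had an adjusted p there, 955 did so. Of the 30, NOTCH3 (authors' adjusted p = 0.0558) and AVIL (0.0541) did not, and LHX6 had no adjusted p there. Some other genes named as called here did not either, such as THBS2 (0.0801) and LAMA1 (0.357).

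**Figure D2:**
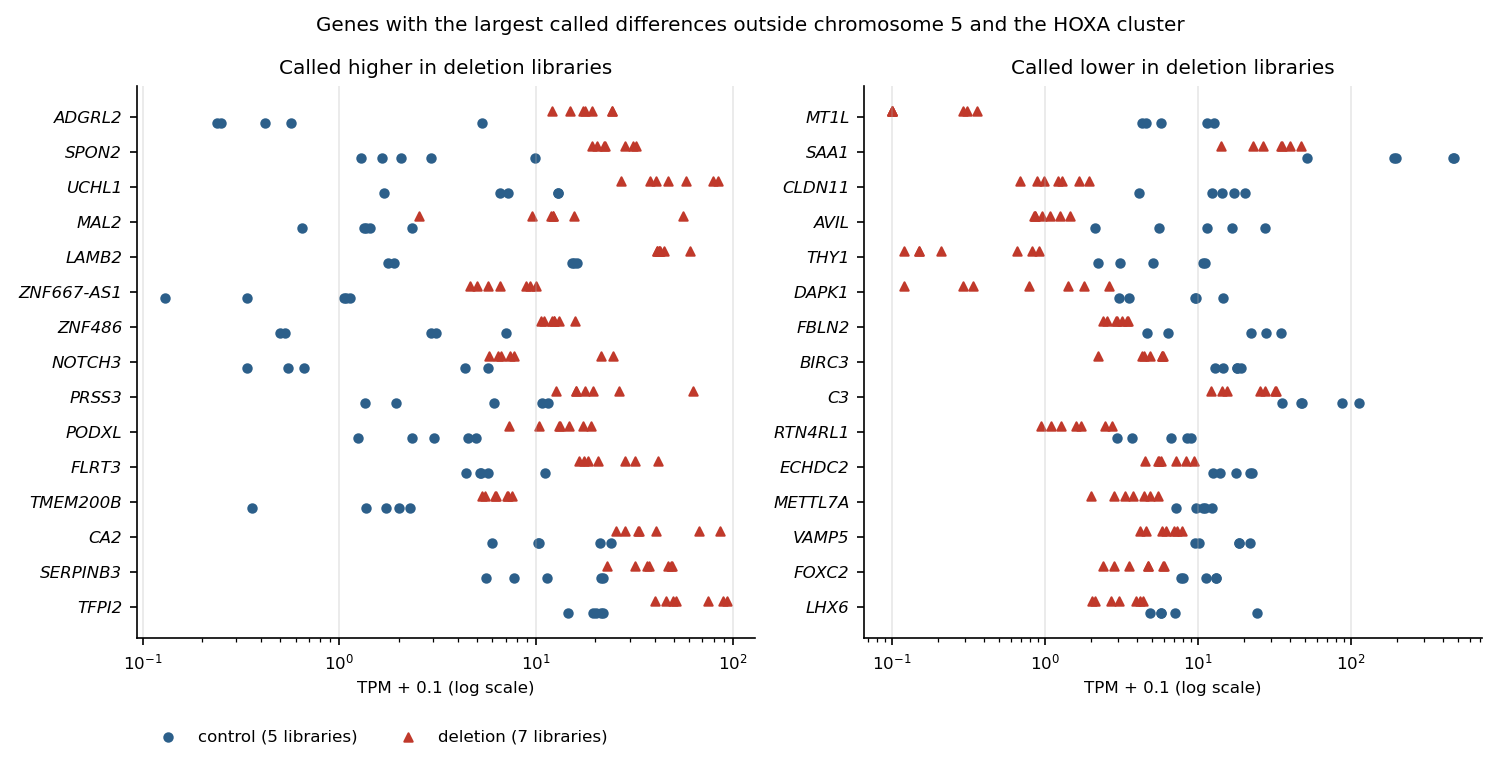
Points are single libraries, with TPM + 0.1 on a log x axis and 1 gene in each row, for the 15 called genes with the largest positive (left) and negative (right) differences outside chromosome 5 and the HOXA cluster. Triangles (7 deletion libraries) and circles (5 controls) do not overlap in any row, which the choice of the genes required. ADGRL2 in control 5 (5.19 TPM) and LHX6 in control 3 (24.3 TPM) stand away from the other controls.

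Few genes of junctions and of the attachment to the basement membrane were called. CLDN11, a claudin, and CDH1, the E-cadherin of adherens junctions, were lower, as were PKP2, a desmosomal plakophilin, and ITGB4, the integrin chain of hemidesmosomes. CLDN11 stood at 0.59 to 1.83 TPM in deletion libraries, with a median of 1.12 TPM, and at 14.3, 12.3, 17.1, 20.2 and 4.02 TPM in controls 1 to 5. CDH1 (ENSG00000039068.18_2, chromosome 16) had a lowest, median and highest deletion value of 0.72, 1.12 and 3.17 TPM, against 7.01, 10.7, 16.3, 4.22 and 2.71 TPM in controls (difference -1.70, SE 0.348, adjusted p = 0.00891). Deletion 2 (3.17 TPM) lay above control 5, so the groups of CDH1 overlapped. ITGB4 (ENSG00000132470.13_1, chromosome 17) ran from 301 over 358 to 442 TPM against 583, 667, 569.9, 451 and 619 TPM (-0.63, SE 0.118, adjusted p = 0.00519), without overlap. PKP2 stood at 42.5 ± 5.27 TPM against 57.2 ± 5.55 TPM (-0.42, adjusted p = 0.0105).

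Most junction genes did not pass the test. In the list of desmosomes and adherens junctions 22 of 25 members were measured, 0 rose and 3 fell, the third being CTNNA1, an alpha-catenin on chromosome 5 (-0.49), while 4 had an unadjusted p under 0.05 on the higher side, and the list's median difference was 0.02. Of 15 measured tight junction genes (28 listed) 1 fell and 2 rose, with a median of 0.05. The 2 were MAL2, a raft protein of polarized transport that stood at 2.44 to 55.8 TPM against 0.55 to 2.24 TPM, and MARVELD1 (0.40, adjusted p = 0.0187), which missed the threshold after median-ratio scaling (0.0525). MAL2 was highest in deletion 4 (55.8 TPM) and lowest in deletion 7 (2.44 TPM). The integrin list left out ITGB4, called lower above, and ITGA6, which were placed in the basement membrane list. Of its 11 measured integrins (19 listed) 0 passed in limma in either direction, and 0 had an unadjusted p under 0.05. ITGAV gave -0.25 (adjusted p = 0.213) and ITGAE 0.21 (adjusted p = 0.206). The basal markers of the line, 14 of 14 measured, had a median of -0.02 and 2 lower members, ITGB4 and NGFR (-0.98). NGFR missed the threshold without 10 of the 12 libraries (adjusted p up to 0.0983).

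The basement membrane list moved at a few members. LAMB2, the laminin beta-2 chain, stood between 40.9 and 60.3 TPM in deletion libraries with a median of 42.0 TPM, against 15.1, 15.6, 1.80, 16.1 and 1.67 TPM in controls 1 to 5 (difference 2.49, SE 0.473, adjusted p = 0.00570). Controls 3 and 5 were low and the other controls lay near each other. All stayed below the deletion libraries, which the choice of LAMB2 among the most changed genes required. LAMA1, a laminin alpha chain, gave 1.86 with an adjusted p of 0.0490 and missed the threshold without 10 of the 12 libraries (adjusted p up to 0.101). In all, 2 of 25 members rose and 1, ITGB4, fell, with a median of -0.02. The count of higher members was 1 without any of 9 libraries and 3 without control 1 or 2, and that of lower members was 4 without control 3.

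Among the 36 measured genes of the interstitial matrix (48 listed) 7 rose and 4 fell, and the median was -0.17. SPON2, a secreted F-spondin relative, stood at 19.2 to 32.1 TPM against 1.19 to 9.83 TPM. FBLN2, a fibulin of elastic fibres, stood at 2.30 to 3.36 TPM in deletion libraries, with a median of 2.83 TPM, against 27.8, 22.1, 6.29, 4.56 and 35.0 TPM in controls. THBS2, a thrombospondin, gave 1.56 (13.5 ± 4.06 against 4.72 ± 3.51 TPM, adjusted p = 0.0221). LOXL1 (1.64) and LOXL2 (1.15), relatives of lysyl oxidase that crosslink collagen and elastin, LTBP4 (0.38), a latent TGF-beta binding protein, FBN2, a fibrillin on chromosome 5 (0.65), and THBS3 (0.81, adjusted p = 0.0455), the last named after its value was seen, were the other genes that rose. ELN, elastin itself, gave -2.80, but control 3 stood at 0.61 TPM, below every deletion library (0.77 to 4.51 TPM), while the other controls ran from 15.6 to 60.8 TPM. SPARC and LOX, the other lower members, lie on chromosome 5. ELN missed the threshold without 10 of the 12 libraries (adjusted p up to 0.0860), LOX and LOXL2 without 9 (up to 0.106 and 0.0870), LOXL1 without 8 (up to 0.0774), THBS2 without control 4 (0.0514) and LTBP4 without deletion 6 (0.0512) or control 5 (0.0566). With 6 deletion libraries and controls 1 to 3 the list had 3 higher members, and between 3 (without deletion 6) and 6 with 1 library left out. The lower count ran from 2 to 5 (without control 3 or 4).

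The fibroblast marker THY1, a surface glycoprotein, was lower. It stood at 0.02 to 0.81 TPM in deletion libraries and at 10.6, 10.9, 4.94, 2.12 and 2.97 TPM in controls. Of 9 fibroblast markers 3 were measured, and their list summed to 7.21 to 20.9 TPM in deletion libraries and 10.6 to 34.0 TPM in controls. COL1A1, the defining collagen, stood at 2.78 to 4.56 TPM and 2.58 to 7.90 TPM (-0.55, adjusted p = 0.0948). FAP, a surface protease of activated fibroblasts, stood at 2.18 to 15.9 TPM and 2.23 to 14.3 TPM (0.10, adjusted p = 0.914). The part of such cells in the matrix differences was not tested.

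Matrix proteases and the actin skeleton changed at a few genes each. CTSH, a lysosomal aminopeptidase of the cathepsin family (chromosome 15), ran from 45.0 over a median of 56.9 to 65.0 TPM in deletion libraries against 26.7, 27.3, 25.3, 26.9 and 12.8 TPM in controls (difference 1.20, SE 0.173, adjusted p = 0.00107). In deletion 4, where chromosome 15 was low as a whole, CTSH stood at 57.5 TPM, near the median of its group. ADAM8, a sheddase (chromosome 10), stood at 4.64 ± 1.67 TPM against 2.18 ± 0.524 TPM (0.79, adjusted p = 0.0181). MMP28 (0.35) and MMP3 (-0.84) were also called, and each missed the threshold without 10 or more of the 12 libraries (adjusted p up to 0.0964). The protease list counted 3 higher and 1 lower of 28 measured (40 listed), with a median of 0.02. ADAM8 had an adjusted p of 0.0654 with 6 deletion libraries and controls 1 to 3, and 0.0500 with no filter on low values.

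GSN, gelsolin, which severs actin filaments, was lower in every deletion library than in any control: 45.2, 56.4 and 60.6 TPM as the lowest, median and highest, against 87.0, 80.3, 77.8, 83.6 and 84.3 TPM (difference -0.57, SE 0.0676, adjusted p = 3.28e-04). AVIL, advillin of the same family, stood at 0.75 to 1.35 TPM against 2.01 to 27.1 TPM. SVIL, supervillin, another member of that family, gave -0.45 (adjusted p = 0.0353). In the actomyosin list 3 of 28 measured genes (35 listed), these 3, fell and 2 rose, CSRP1 (0.20) and ACTN4 (0.28), with a median of -0.05. SVIL missed the threshold without 7 libraries (adjusted p up to 0.0757), CSRP1 without 9 (0.0826) and ACTN4 without 10 (0.0909), and both higher genes did so after median-ratio scaling (0.0903 and 0.123). The lower count was 5 without control 4. UCHL1, a deubiquitinase of neurons and neuroendocrine cells, rose from 12.8, 12.8, 7.14, 6.47 and 1.58 TPM to 26.8 to 84.2 TPM (median 46.9 TPM), and the granin CHGB from 0.42 to 0.92 TPM to 1.05 to 2.24 TPM. The 9 neuroendocrine markers, 4 of them measured, summed to 40.6 to 94.7 TPM against 11.3 to 39.2 TPM, most of the deletion sum being UCHL1. NCAM1 stood at 5.37 to 10.1 TPM against 2.05 to 23.2 TPM (-0.56, adjusted p = 0.410) and ENO2 at 0.98 to 4.58 TPM against 0.81 to 2.57 TPM (0.33, adjusted p = 0.423), while CHGA stayed at or below 0.06 TPM and SYP between 0.26 and 0.53 TPM. The part of such cells was not tested.

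**Figure D3:**
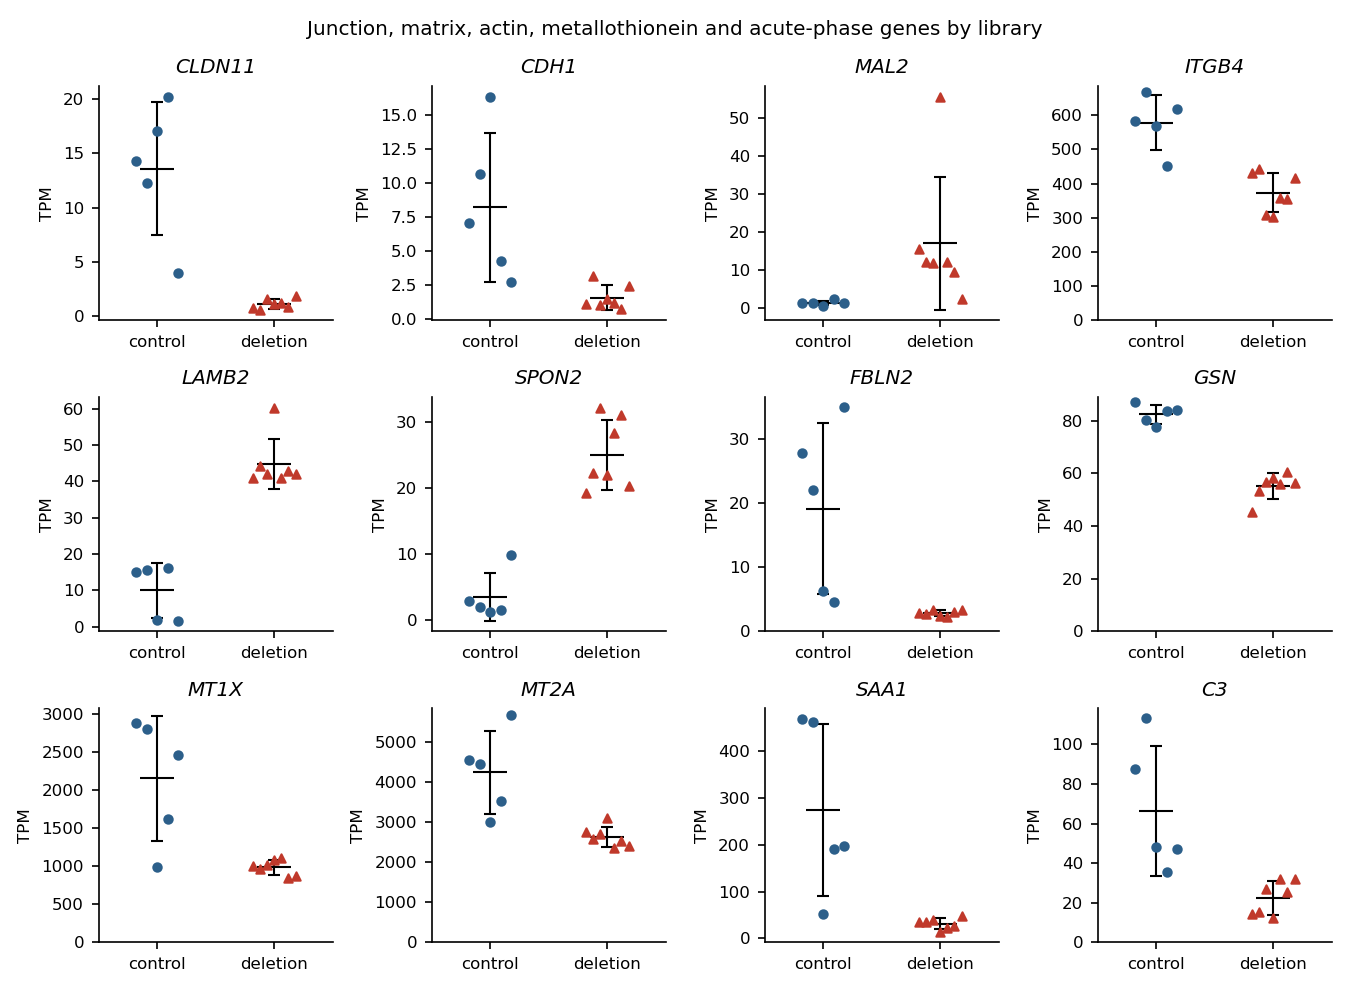
Each panel gives the TPM (y axis, linear, 0 shown) of a gene in the 5 control libraries (circles) and 7 deletion libraries (triangles), with bars for the mean and SD. CLDN11, ITGB4, FBLN2, GSN, SAA1 and C3 are lower and MAL2, LAMB2 and SPON2 higher in every deletion library than in any control. For all of these but ITGB4 and GSN the choice of the genes required it. CDH1, MT1X and MT2A overlap at 1 control each.

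Metallothioneins, small cysteine-rich proteins that bind zinc and copper and are induced by metals through the factor MTF1, were lower together. Of 15 measured genes of metallothioneins and zinc handling (18 listed) 6 fell and 0 rose in limma, with 1 at an unadjusted p under 0.05 on the higher side and a median of -0.22. MT2A (ENSG00000125148.6_1, chromosome 16), the most abundant member in these cells, ran from 2349 over a median of 2575 to 3086 TPM in deletion libraries, against 4553, 4432, 2999, 3521 and 5670 TPM in controls 1 to 5 (difference -0.66, SE 0.131, adjusted p = 0.00754). MT1X (ENSG00000187193.8_2, chromosome 16) ran from 848 over 1004 to 1102 TPM against 2882, 2802, 990.3, 1626 and 2463 TPM (-1.03, SE 0.223, adjusted p = 0.0120). Control 3 lay within the deletion libraries for both genes, and the other 4 controls above them. MT1E stood at 658 ± 45.7 TPM against 1010 ± 238 TPM (-0.58, adjusted p = 0.0131) and MT1F at 9.49 ± 1.69 TPM against 14.9 ± 3.58 TPM (-0.59, adjusted p = 0.0291). MT1L, a metallothionein relative, was listed at 0 in deletion 1, 5, 6 and 7 and at 0.19 to 0.26 TPM in the other deletion libraries, against 4.19 to 12.6 TPM in controls. The sixth was SLC30A5, a zinc transporter on chromosome 5 (-0.52).

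Metallothionein genes resemble each other closely, so reads may be shared among them. With 6 deletion libraries and controls 1 to 3 the list had 3 lower members, MT1X (adjusted p = 0.0592), MT1E (0.0595) and MT1F (0.0975) missing the threshold, and MT1F missed it without 8 single libraries (up to 0.0740).

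The promoters of the 2 metallothionein genes with an entry among the RefSeq sequences are shown because these genes moved together and are known targets of a metal-responsive factor. The 250 bases before the start of MT2A (chr16:56608334-56608583, plus strand) and of MT1X (chr16:56682220-56682469, plus strand) are given 5′ to 3′ from RefSeq on GRCh38.p14. Capitals mark the core of the metal response element, searched as TGCACNC or TGCGCNC on both strands.
MT2A: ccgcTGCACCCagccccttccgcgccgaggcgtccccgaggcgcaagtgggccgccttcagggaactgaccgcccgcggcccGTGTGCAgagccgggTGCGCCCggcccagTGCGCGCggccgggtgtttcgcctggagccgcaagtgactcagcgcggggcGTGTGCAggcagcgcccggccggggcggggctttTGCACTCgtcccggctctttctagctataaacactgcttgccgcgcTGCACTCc
MT1X: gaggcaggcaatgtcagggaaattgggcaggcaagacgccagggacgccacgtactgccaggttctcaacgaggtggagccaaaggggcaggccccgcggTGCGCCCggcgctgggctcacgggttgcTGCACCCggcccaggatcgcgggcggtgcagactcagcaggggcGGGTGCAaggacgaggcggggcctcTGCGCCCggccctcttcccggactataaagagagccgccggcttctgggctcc
The window of MT2A held 7 cores and that of MT1X 4. The core is short, and 24.8% of all promoter windows searched (8719 of 35116) held at least 1. A match is a description of the sequence.

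Acute-phase and complement genes moved in both directions. SAA1 and SAA2, serum amyloid proteins, and C3, the central complement protein, fell, while CD55, which restrains complement on the cell surface, rose. SAA1 stood at 14.1, 34.7 and 46.8 TPM as the lowest, median and highest deletion value, against 469.9, 462, 51.5, 192 and 197 TPM in controls 1 to 5. C3 (ENSG00000125730.16_2, chromosome 19) ran from 12.1 over 25.2 to 32.3 TPM against 87.5, 113, 47.9, 35.5 and 47.2 TPM (difference -1.47, SE 0.320, adjusted p = 0.0121). Both were below every control in every deletion library, which their choice among the most changed genes required. Control 3 was the lowest control for SAA1 and control 4 for C3. CD55 (ENSG00000196352.14_1, chromosome 1) ran from 47.2 over 63.0 to 119 TPM against 22.6, 22.3, 30.0, 36.8 and 25.1 TPM (1.31, SE 0.222, adjusted p = 0.00288), without overlap.

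In the list of epithelial defence and acute phase 3 of 17 measured genes (32 listed) fell and 2 rose, with a median of -0.31. SAA2, a near copy of SAA1 with which it may share reads, stood at 0.603 ± 0.393 TPM against 21.8 ± 19.1 TPM (-3.15, adjusted p = 0.00958), and control 3 (0.59 TPM) was as low as the deletion libraries. SAA2 missed the threshold with 6 deletion libraries and controls 1 to 3 (adjusted p = 0.0631). With 1 library left out the lower count ran from 2 (without deletion 1) to 5 (without control 3).

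Regulators of cell death and of innate sensing were lower at several members. The share of cell death genes called either way, 11.6%, was near the 10.3% of all genes. BIRC3, an inhibitor of apoptosis that is itself an NF-kB target, ran from 2.10 over a median of 4.77 to 5.77 TPM against 17.8, 14.5, 18.8, 12.9 and 17.8 TPM. CD40, a receptor of the TNF family, stood at 10.0 ± 1.72 TPM against 15.6 ± 2.29 TPM (difference -0.60, SE 0.126, adjusted p = 0.0101), again without overlap. DAPK1, a death-associated kinase, stood at 0.02 to 2.52 TPM against 2.95 to 14.5 TPM. With BIRC2 (-0.38) these were the 4 lower of 43 measured genes of cell death (50 listed), against 1 higher, GSDME, a pore-forming gasdermin (0.46), and the median was 0.00. BIRC2 missed the threshold without 9 single libraries (adjusted p up to 0.0841) and GSDME without 6 (up to 0.0706). The lower count was 7 without control 3.

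TLR2, the receptor of bacterial lipoproteins, and TRIM25, a ubiquitin ligase of the RIG-I pathway, fell clear of the controls. TLR2 (ENSG00000137462.6_1, chromosome 4) ran from 0.13 over 0.34 to 0.51 TPM against 4.93, 3.58, 1.28, 1.53 and 2.14 TPM (difference -1.38, SE 0.214, adjusted p = 0.00167). TRIM25 ran from 37.3 over 43.1 to 47.2 TPM against 98.0, 105, 53.9, 83.1 and 58.9 TPM (-0.85, SE 0.151, adjusted p = 0.00382). In both genes controls 1 and 2 were the highest or near it and control 3 the lowest. Among 32 measured receptors, sensors and factors of the interferon system (40 listed) 5 fell and 1 rose, and the median was -0.25. The others that fell were IRF1 (-1.18) and STING1 (-0.61), both on chromosome 5, and TLR3 (-1.16), and MAVS rose (0.19). TLR3 missed the threshold without 10 of the 12 libraries (adjusted p up to 0.0937) and MAVS without 4 (up to 0.0561), and IRF1 had 0.0781 with 6 deletion libraries and controls 1 to 3. The lower count ran from 4 to 16, the 16 without control 3, and it was 2 with chromosome 5 left out of the scaling and the test.

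Of the NF-kB subunits and regulators, 35 of 37 measured, 3 fell and 1 rose, with a median of -0.01. The share called was 11.4%, near the 10.3% of all genes. TNIP1 (-0.96) and TNFAIP8 (-0.70) lie on chromosome 5, and IRAK2, a kinase of interleukin-1 and Toll-like receptors, gave -0.72 (4.44 ± 0.451 against 8.29 ± 2.70 TPM, adjusted p = 0.0188). CARD10, a scaffold upstream of NF-kB, rose from 35.0 ± 4.71 TPM to 48.3 ± 4.16 TPM (0.46, adjusted p = 0.00645). IRAK2 missed the threshold without control 2 (0.0505) and with 6 deletion libraries and controls 1 to 3 (0.0984). Of 11 measured chemokines and receptors (27 listed) 2 fell, CXCL1 (-1.14) and CXCL16 (-0.90), with a median of -0.42. That count was 0 without control 1, 2 or 4 and 6 without control 3.

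Of the cytokines and their receptors 3 rose and 3 fell. IL13RA2, the decoy receptor of interleukin-13 (chromosome X), ran from 9.15 over a median of 15.1 to 17.6 TPM in deletion libraries, against 5.13, 4.51, 3.99, 7.53 and 2.31 TPM in controls (difference 1.43, SE 0.207, adjusted p = 0.00110). IL33, an alarmin of epithelial nuclei, ran from 0.98 over 2.22 to 8.66 TPM against 0.51, 0.23, 0.04, 0.45 and 0.29 TPM (1.72, SE 0.391, adjusted p = 0.0152). Both rose without overlap, and IL33 varied widely among deletion libraries, with 6.21 to 8.66 TPM in deletion 3, 4 and 5 and 0.98 to 2.22 TPM in the others. IL18 rose by a smaller amount (0.31, adjusted p = 0.0211). IL6ST, the shared gp130 receptor chain, and LIFR, which pairs with it, both on chromosome 5, gave -0.85 and -0.78. IL6ST stood at 24.8 ± 2.32 TPM against 46.1 ± 9.62 TPM (adjusted p = 8.35e-04). CSF1, a macrophage growth factor that lies outside chromosome 5, was the third lower gene (-1.24). The list had 34 measured genes (49 listed) and a median of -0.15. LIFR missed the threshold without 8 libraries (adjusted p up to 0.0891), CSF1 without 10 (up to 0.111), and IL33 (0.0666) and IL18 (0.0581) with 6 deletion libraries and controls 1 to 3. The lower count was 8 without control 3 and 1 without any of 6 other libraries.

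A few ligands of the EGF receptor family rose. EREG, epiregulin (ENSG00000124882.3_1, chromosome 4), ran from 35.9 over a median of 45.5 to 56.6 TPM in deletion libraries, against 33.5, 31.5, 12.4, 21.7 and 31.6 TPM in controls 1 to 5 (difference 0.88, SE 0.217, adjusted p = 0.0214). NRG1, neuregulin-1 (ENSG00000157168.14, chromosome 8), a ligand of ERBB3 and ERBB4, ran from 25.0 over 34.1 to 42.5 TPM against 24.5, 25.0, 16.9, 13.5 and 7.39 TPM (1.01, SE 0.249, adjusted p = 0.0214). The groups of EREG did not overlap, and those of NRG1 met at deletion 6 and control 2. EPGN, epigen, gave 0.85 (adjusted p = 0.0307). DUSP4, a phosphatase that switches off ERK (0.78), and NRAS (0.18) also rose, and SPRY4, a feedback inhibitor on chromosome 5, fell (-0.58). Of 29 measured genes (34 listed) 5 rose and 1 fell, with a median of 0.04.

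EPGN missed the threshold without deletion 3 or control 1, 2 or 4 (adjusted p up to 0.0779), DUSP4 without 9 libraries (up to 0.0908) and NRAS without 10 (up to 0.0916). EREG and NRG1 did so with 6 deletion libraries and controls 1 to 3 (0.0815 and 0.0575) and with no filter on low values (0.0539 and 0.0543). The higher count ran from 2 (without deletion 3 or control 2) to 6 (without control 3), and was 3 after median-ratio scaling. The lower count was 5 without control 3.

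Other growth factor genes moved in single steps. FGFBP1, a secreted carrier that frees fibroblast growth factors from the matrix, was abundant and ran from 1347 over a median of 1751 to 2196 TPM in deletion libraries, against 1363, 1159, 777, 639.6 and 928 TPM in controls (difference 0.88, SE 0.181, adjusted p = 0.00889). Deletion 7 (1347 TPM) and deletion 4 (1362.8 TPM) lay just under control 1 (1363.1 TPM). FGFRL1, an FGF receptor without a kinase domain, rose by 0.30 (adjusted p = 0.0120). PDGFB, a platelet-derived growth factor chain, ran from 0.18 over 0.50 to 0.87 TPM against 2.02, 2.62, 1.61, 1.69 and 1.05 TPM (-0.90, SE 0.158, adjusted p = 0.00356). Of 31 measured genes of the FGF, PDGF, VEGF, MET and IGF systems (44 listed) 3 rose, INSR being the third (0.37), and 1 fell, with a median of -0.04. INSR missed the threshold without 6 single libraries (adjusted p up to 0.0782). The higher count was 5 and the lower 4 without control 3.

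Ephrins, ligands that act through cell contact, changed in both directions. EFNB2, an ephrin ligand, ran from 26.3 over a median of 28.6 to 47.8 TPM against 12.5, 11.6, 18.3, 23.1 and 9.54 TPM (difference 1.02, SE 0.202, adjusted p = 0.00727). EFNB1 stood at 58.8 ± 3.47 TPM against 42.9 ± 7.50 TPM (0.46, adjusted p = 0.00947). EFNA5, on chromosome 5, fell (-0.63), so the list of ephrins and Eph receptors had 2 higher and 1 lower of 13 measured genes (20 listed), with a median of 0.10. SEMA3C, a secreted semaphorin, was the 1 gene called of 24 measured semaphorins, netrins and slits (46 listed). It fell from 95.3 ± 7.81 TPM to 70.3 ± 6.23 TPM (-0.43, adjusted p = 0.00249). ADGRL2 was the 1 gene called of 13 measured adhesion GPCRs (23 listed), which had a median of 0.20 and 5 members with an unadjusted p under 0.05, all higher. EFNB1 missed the threshold with 6 deletion libraries and controls 1 to 3 (adjusted p = 0.0533).

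NOTCH3, a Notch receptor (ENSG00000074181.8_1, chromosome 19), ran from 5.69 over a median of 7.28 to 24.5 TPM in deletion libraries, against 4.26, 5.57, 0.45, 0.24 and 0.56 TPM in controls 1 to 5 (difference 2.08, SE 0.496, adjusted p = 0.0186). Deletion 3 and 5 stood at 21.4 and 24.5 TPM and the other deletion libraries lay close to controls 1 and 2. DLL3, a Notch ligand that acts within the signalling cell, stood at 2.08 ± 0.251 TPM against 1.23 ± 0.341 TPM (0.48, adjusted p = 0.0165). MAML1, a coactivator on chromosome 5, fell (-0.48), and the Notch list counted 2 higher and 1 lower of 23 measured genes (27 listed), with a median of 0.06. With 6 deletion libraries and controls 1 to 3 NOTCH3 (adjusted p = 0.124) and DLL3 (0.0785) missed the threshold.

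Among Wnt genes WNT7B, a ligand, ran from 3.81 over a median of 5.09 to 12.4 TPM against 2.00, 1.48, 2.79, 2.10 and 2.28 TPM (difference 1.09, SE 0.213, adjusted p = 0.00678), and the groups did not overlap. KREMEN2, a receptor of the DKK antagonists, stood at 5.04 ± 0.339 TPM against 3.12 ± 1.12 TPM (0.59, adjusted p = 0.0196). The antagonists DKK1 (1.43) and SFRP1 (0.75) and the R-spondin receptor LGR4 (0.40) were called higher too. DKK1 lies on chromosome 10 and was highest in deletion 4 (1043.5 TPM, the other deletion libraries 265.7 to 360.4 TPM), against 74.9 to 318 TPM in controls. Of 28 measured genes (50 listed) 5 rose and 2 fell, TCF7 and APC, both on chromosome 5, and the median was 0.08. DKK1 missed the threshold without 10 of the 12 libraries (adjusted p up to 0.110), SFRP1 without 6 (up to 0.0588) and LGR4 without 5 (up to 0.0533), and KREMEN2 had an adjusted p of 0.103 and APC of 0.0529 with 6 deletion libraries and controls 1 to 3. The higher count fell to 2 without deletion 1, 2, 3 or 6, and the lower count was 5 without control 3.

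In the TGF-beta and BMP list 1 of 32 measured genes (43 listed) rose, TWSG1, a BMP-binding protein (0.29, adjusted p = 0.0104), and 1 fell, SMAD5 on chromosome 5 (-0.52), with a median of 0.07. Both counts were 3 without control 3. Of 27 measured Hippo factors and YAP targets (32 listed) 2 rose, with a median of 0.07. The share called, 7.41%, was below the 10.3% of all genes. CCN3, a matricellular protein, stood at 2.40 ± 1.34 TPM against 0.466 ± 0.273 TPM (1.14, adjusted p = 0.0165). STK4, the kinase MST1, gave 0.20 and missed the threshold without 9 single libraries (adjusted p up to 0.0650).

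**Figure D4:**
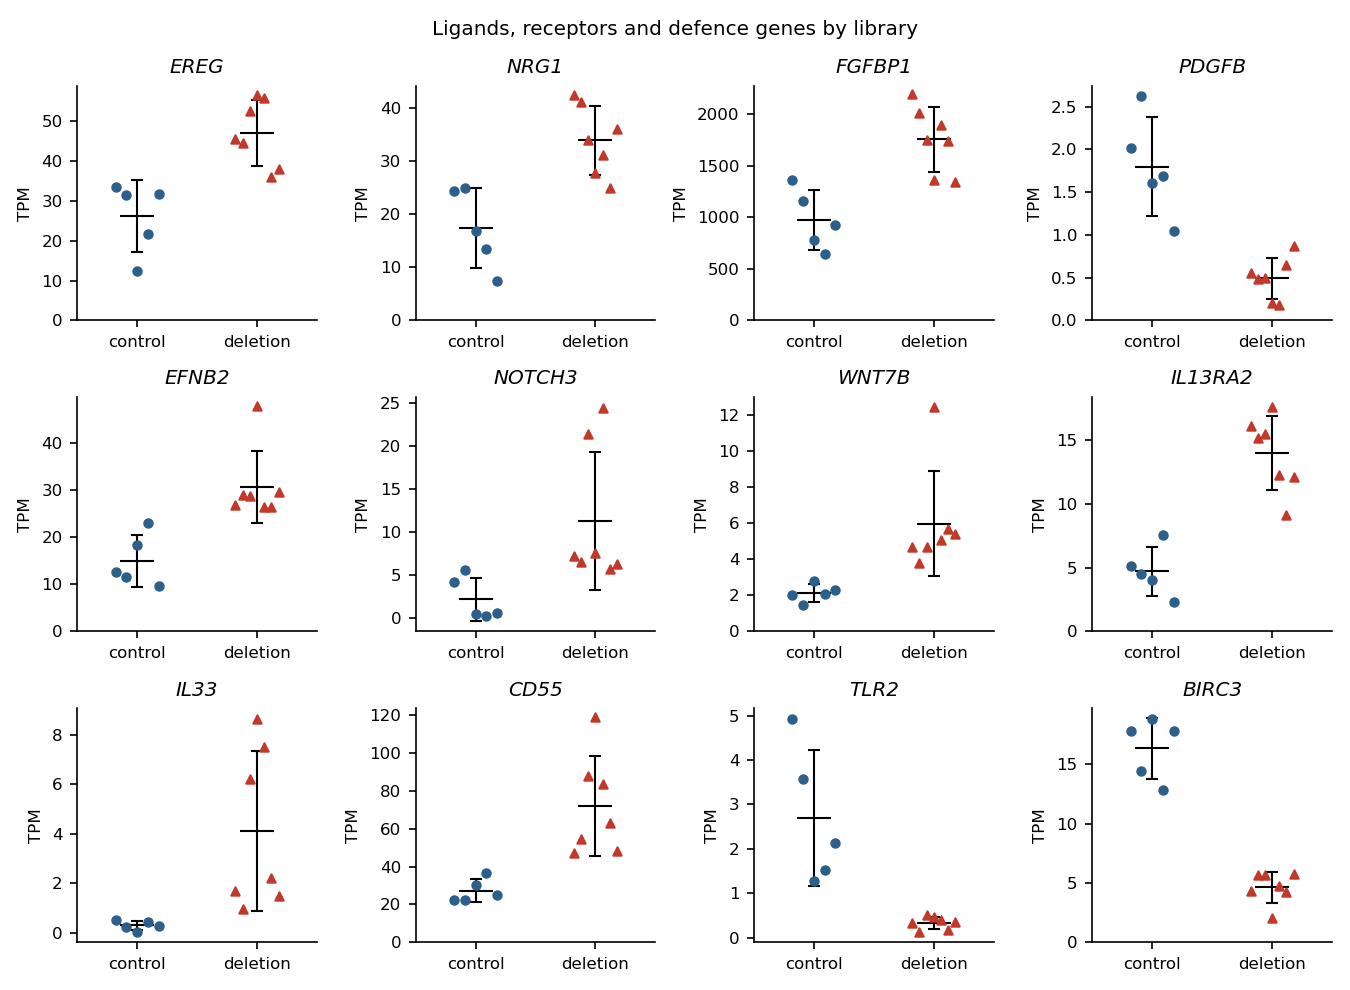
Each panel gives the TPM (y axis, linear, 0 shown) of a gene in the 5 control libraries (circles) and 7 deletion libraries (triangles), with bars for the mean and SD. PDGFB, TLR2 and BIRC3 are lower in every deletion library than in any control. The other genes are higher, with an overlap for NRG1 and FGFBP1, and NOTCH3 and IL33 spread widely among deletion libraries. The choice of BIRC3 and NOTCH3 among the most changed genes required groups without overlap.

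Of 33 measured genes of fatty acid and lipid synthesis (39 listed) 6 rose and 1 fell, with a median of 0.11. ACLY, which makes cytosolic acetyl-CoA for lipid synthesis, ran from 159.97 over a median of 174 to 189 TPM in deletion libraries, against 145, 120.2, 148, 119.95 and 119 TPM in controls (difference 0.42, SE 0.0691, adjusted p = 0.00248). CPT1A, the gate of fatty acid oxidation, stood at 57.4 ± 6.14 TPM against 43.6 ± 2.15 TPM (0.38, adjusted p = 0.00614), and FABP5, a fatty acid carrier of epidermal cells, at 289 ± 99.3 TPM against 148 ± 26.2 TPM (0.91, adjusted p = 0.0181). All 3 were above every control in every deletion library. DGAT2, which makes triglycerides, rose by 0.50, ELOVL6 by 0.44 and ACACA by 0.20, and FADS2, a desaturase, fell (-0.34). These were all the called members. ELOVL6 missed the threshold without 7 libraries (adjusted p up to 0.0732), ACACA without control 1 (0.0538) and after median-ratio scaling (0.0663), FADS2 without control 4 (0.0514) and FABP5 with 6 deletion libraries and controls 1 to 3 (0.0992). After median-ratio scaling 3 members were lower.

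ALDH1A3, an enzyme that makes retinoic acid (chromosome 15), ran from 135 over a median of 186 to 472 TPM in deletion libraries, against 56.9, 62.9, 84.8, 147 and 46.2 TPM in controls (difference 1.37, SE 0.327, adjusted p = 0.0187). Deletion 4 gave the highest value, and control 4 (147 TPM) lay within the deletion range. RDH11, a retinal reductase of the prostate, stood at 87.5 ± 2.99 TPM against 69.7 ± 5.16 TPM (0.33, adjusted p = 0.00237). It was 1 of 2 higher genes, with RDH10 (0.44), of 12 measured in the retinoid list (23 listed). RDH10 missed the threshold without 8 libraries (adjusted p up to 0.0932). Among xenobiotic, aldehyde and glutathione enzymes 4 of 35 measured (46 listed) rose, ALDH1A3, ALDH3B1 (0.51), GSTP1 (0.24) and GPX1 (0.22), and 0 fell in limma, with 4 at an unadjusted p under 0.05 on the lower side. GSTP1, a glutathione transferase, stood at 1201 ± 30.7 TPM against 1020 ± 85.6 TPM (adjusted p = 0.0115). GPX1 missed the threshold without 9 libraries (adjusted p up to 0.0959) and ALDH3B1 with 6 deletion libraries and controls 1 to 3 (0.0692).

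NRF2 targets, genes of the antioxidant response, had a median of 0.19 over 30 measured members (31 listed), and 3 rose and 1 fell. SLC7A11, the cystine importer, stood at 33.7 ± 6.97 TPM against 20.3 ± 3.40 TPM (0.69, adjusted p = 0.0160), PIR, pirin, at 22.9 ± 4.01 TPM against 14.6 ± 2.89 TPM (0.62, adjusted p = 0.0145), and ABCC1, an efflux pump, at 36.8 ± 2.25 TPM against 28.9 ± 2.34 TPM (0.34, adjusted p = 0.00545). ABCC3, another pump, gave -0.87 and missed the threshold without deletion 2 (adjusted p = 0.0514), deletion 3 (0.0526) or control 5 (0.0549). The higher count was 7 without control 4 and 6 with 6 deletion libraries and controls 1 to 3. In polyamine metabolism 3 of 14 measured genes (15 listed) rose, MTAP (0.41), AGMAT (0.85) and AZIN1 (0.31), with a median of 0.15. AZIN1 missed the threshold without deletion 5 (0.0502) or control 1 (0.0561), and AGMAT with no filter on low values (0.0503) and with 6 deletion libraries and controls 1 to 3 (0.0518).

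Chromatin and cell cycle genes held a few calls. CBX6, a chromobox protein of the Polycomb repressive complex, ran from 17.6 over a median of 19.8 to 21.2 TPM in deletion libraries, against 12.7, 10.6, 13.6, 10.5 and 14.0 TPM in controls (difference 0.63, SE 0.0880, adjusted p = 9.07e-04). SUZ12, of the same machinery, gave 0.22 and missed the threshold without 9 libraries (adjusted p up to 0.0794). These were the 2 higher of 43 measured Polycomb and trithorax genes, with a median of 0.05. The share called, 4.65%, was below the 10.3% of all genes. Of 17 measured genes of CTCF and cohesin, which shape chromatin loops, 0 passed in limma, with 4 higher and 1 lower at an unadjusted p under 0.05. HDAC8 gave 0.28 (adjusted p = 0.0503) and ESCO2 0.37 (adjusted p = 0.0542). Of 9 measured TALE cofactors, the partners of HOX proteins on DNA (12 listed), 0 passed, with 1 higher at an unadjusted p under 0.05, and PBX2 gave 0.18 (adjusted p = 0.0674). CDK6, a G1 kinase on chromosome 7, stood at 56.8 ± 3.86 TPM against 39.1 ± 6.92 TPM (0.54, adjusted p = 0.00459). CDC25A, a phosphatase of the G1/S step, stood at 15.6 ± 1.18 TPM against 10.8 ± 2.47 TPM (0.52, adjusted p = 0.0126). They were the 2 called of 31 measured G1 regulators, which had a median of 0.05 and 5 higher members without control 4. CDKN1C, the imprinted inhibitor p57, fell from 4.78 ± 0.656 TPM to 2.66 ± 0.887 TPM (-0.69, adjusted p = 0.0185) and was the 1 gene called of 18 measured imprinted genes (32 listed). It missed the threshold with no filter on low values (0.0513) and with 6 deletion libraries and controls 1 to 3 (0.0740).

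The remaining lists each had a few called members. The shares called of ETS factors (11.1%) and of tubulins and cytoskeletal genes (10.0%) were near the 10.3% of all genes. Of 24 measured glypicans, syndecans and heparan sulfate enzymes (31 listed) 3 rose and 2 fell, the lower ones being SDC4 and, on chromosome 5, NDST1. HS3ST2, a sulfotransferase, stood at 3.87 ± 1.28 TPM against 0.972 ± 0.423 TPM (1.29, adjusted p = 0.00220), and SDC4, a syndecan, at 103 ± 4.32 TPM against 142 ± 25.3 TPM (-0.44, adjusted p = 0.0109). HS3ST1 (0.93) missed the threshold without 8 libraries (adjusted p up to 0.101) and EXT2 (0.29) without 9 (up to 0.0723), and the higher count was 1 without any of 5 libraries or after median-ratio scaling and 5 without control 3. Among 16 measured tetraspanins (26 listed) TSPAN14 rose (0.42) and CD82, a suppressor of metastasis (-0.59, adjusted p = 0.0207), and TSPAN17 on chromosome 5 (-0.37) fell. S100A16 (0.31) and S100P (1.38), calcium-binding proteins, rose with S100A3 (0.36), and ANXA6 on chromosome 5 fell (-0.74), of 19 measured S100 proteins and annexins (24 listed). S100A3 missed the threshold without 9 libraries (adjusted p up to 0.0944), and the higher count was 5 without deletion 4. S100P stood at 0.35 to 4.94 TPM against 0.00 to 0.81 TPM. The ETS factors FLI1 (1.06) and EHF (1.14) were the 2 called of 18 measured (26 listed), and each missed the threshold without 9 or more of the 12 libraries (adjusted p up to 0.0979). Of 9 measured caveolar genes 1 rose, CAVIN3 (0.27), and 1 fell, EHD1 (-0.36), which missed the threshold without 9 libraries (adjusted p up to 0.0758) and without 5 (up to 0.0628), and the higher count was 3 without control 3. Of 20 measured tubulins and cytoskeletal genes (32 listed) 2 rose, UCHL1 and MAP1B. With 6 deletion libraries and controls 1 to 3 SDC4 (0.0641) and CD82 (0.0721) missed the threshold.

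**Figure D5:**
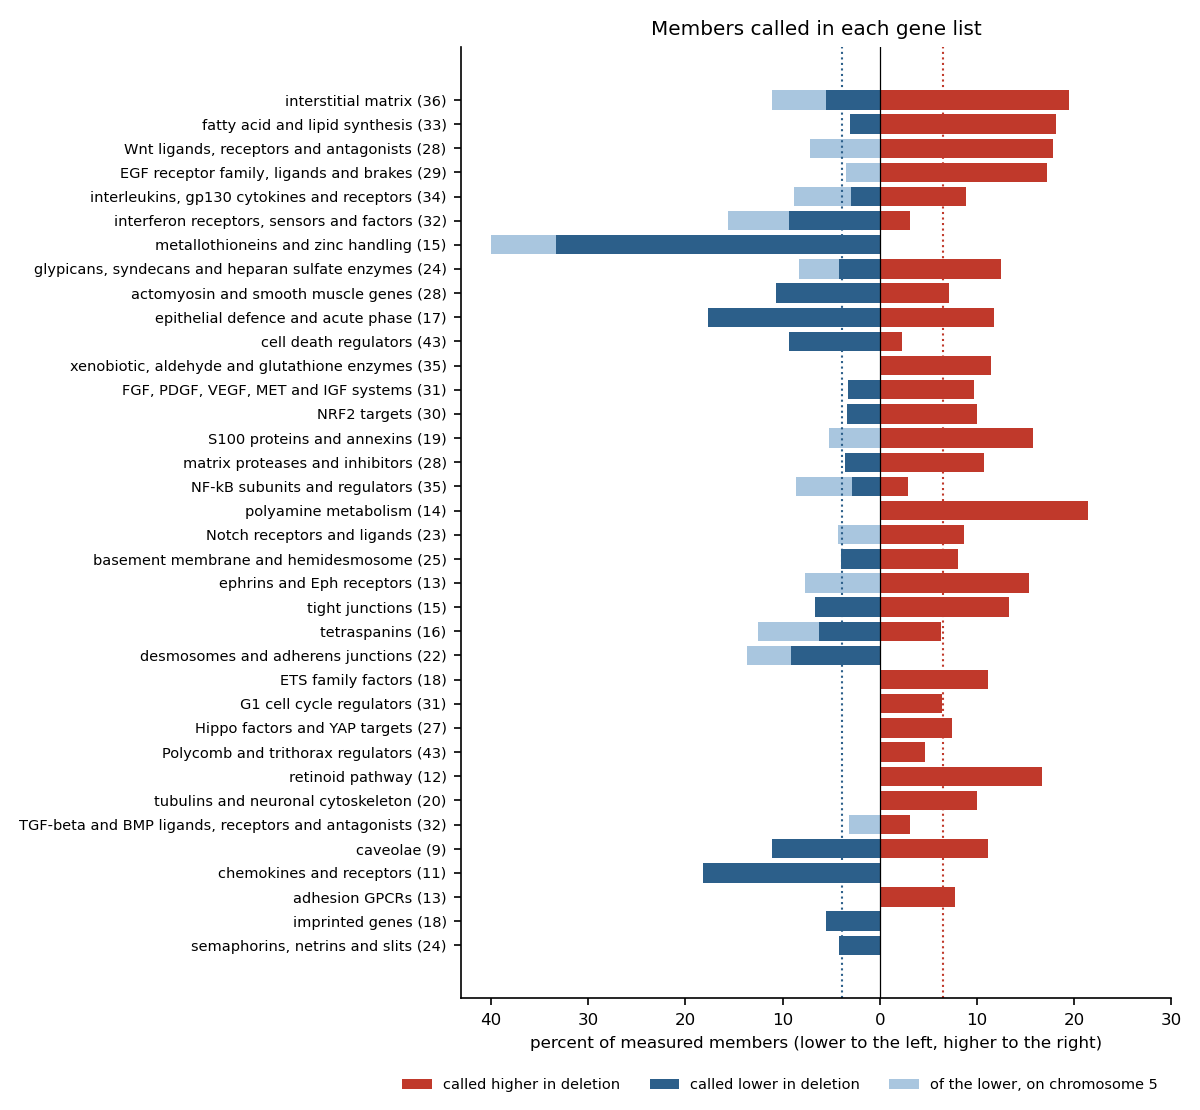
Bars give, for each gene list with a called member, the percent of measured members (their number in parentheses) called higher (right) and lower (left) in deletion libraries, the pale part of the lower bars being genes of chromosome 5. Dotted lines mark the shares over all genes, 6.46% higher and 3.86% lower. Metallothioneins and zinc handling reach farthest to the left, with 6 of 15 members.

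Zinc finger genes of chromosome 19, most of them KRAB repressors that stand in tandem clusters, rose at 27 of 206 measured members (240 listed), and 0 fell in limma, with 6 at an unadjusted p under 0.05 on the lower side. Their median difference was 0.07. The share called was 13.1%, beside 13.8% called higher among all tested genes of chromosome 18. Zinc finger genes of other chromosomes had 8 higher and 3 lower of 210 measured (235 listed), with a median of 0.03, and the other genes of chromosome 19 had 43 higher and 14 lower of 743, with a median of 0.04. ZNF90 ran from 15.8 over a median of 18.7 to 21.2 TPM in deletion libraries, against 6.97, 6.34, 10.6, 11.5 and 11.3 TPM in controls (0.94, SE 0.144, adjusted p = 0.00151). ZNF486 stood at 10.5 to 15.7 TPM, against 0.40, 0.43, 6.94, 3.01 and 2.83 TPM. ZNF667 ran from 1.29 to 7.02 TPM against 0.00 to 0.60 TPM, and its antisense partner ZNF667-AS1 from 4.52 to 9.90 TPM against 0.03 to 1.04 TPM. The kit was stranded, but whether counting used strand is not given in the sources used here, so the reads of this pair may not be told apart.

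ZNF429 (0.96), ZNF665 (1.20) and ZNF726 (0.56) were the other members named by the lowest adjusted p, and each lay above every control in every deletion library. Outside chromosome 19, ZNF732 on chromosome 4 stood at 2.34 to 4.90 TPM against 0.04, 0.03, 0.02, 1.12 and 0.00 TPM (1.84, SE 0.206, adjusted p = 2.11e-04), and ZNF503 on chromosome 10 at 8.37 ± 1.34 TPM against 4.32 ± 1.64 TPM (0.86, adjusted p = 0.00930). Many of these genes are close copies, so reads may be shared among neighbours. With 1 library left out, 20 (without control 2) to 30 (without control 3) genes of the chromosome 19 set rose, and 5 to 15 (without control 4) of those elsewhere. Of the other genes of chromosome 19, 28 (without deletion 1 or 6) to 53 (without control 3) rose and 8 (without control 1) to 28 (without control 3) fell, with 24 each way after median-ratio scaling.

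On chromosome 5 the calls ran the other way. There 313 of 597 tested genes were lower (52.4%) and 6 higher (1.01%), with a median difference of -0.39. The most negative were IRF1-AS1 (-1.62), ERAP2, a peptidase of antigen processing (-1.47), SPARC, a matrix glycoprotein (-1.45), ARHGAP26 (-1.27), and ERAP1 (-1.22). SPARC, the most abundant of them, ran from 215 over a median of 285 to 352 TPM in deletion libraries, against 537, 1054, 727, 544 and 1269.5 TPM in controls 1 to 5 (SE 0.210, adjusted p = 0.00111). ERAP2 ran from 9.52 over 10.6 to 12.3 TPM against 48.9, 45.7, 15.3, 31.4 and 28.4 TPM (SE 0.222, adjusted p = 0.00148). ARHGAP26 stood at 2.41 ± 0.862 TPM against 7.11 ± 1.65 TPM. In these 3 genes no deletion library reached a control. The count of lower genes was 271 to 324 with 1 library left out, and IRF1-AS1 (adjusted p = 0.0681) and ERAP1 (0.0513) missed the threshold with 6 deletion libraries and controls 1 to 3.

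The 6 higher genes of chromosome 5 stood against the rest of it. SPINK6, an epidermal protease inhibitor, ran from 2.10 over a median of 4.53 to 12.5 TPM, against 0.56, 0.77, 0.44, 0.48 and 0.84 TPM (difference 1.97, SE 0.335, adjusted p = 0.00300). FBN2 stood at 113 ± 9.22 TPM against 72.5 ± 16.5 TPM (0.65, adjusted p = 0.00372) and CCDC112 at 5.49 ± 0.767 TPM against 3.75 ± 0.599 TPM (0.45, adjusted p = 0.0181). SNHG18 (0.78), SH3TC2 (0.51) and MAP1B (0.50) were the others. MAP1B missed the threshold without 11 of the 12 libraries (adjusted p up to 0.0957), SNHG18 without 7 (up to 0.0725) and SH3TC2 without control 1 (0.0551) or 2 (0.0545), and CCDC112 had 0.0626 with 6 deletion libraries and controls 1 to 3. Without control 2 there were 3 higher genes.

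In the HOXA cluster on chromosome 7, 16 of 17 listed members were measured, 9 rose and 0 fell in limma, with 13 higher and 0 lower at an unadjusted p under 0.05. HOXA13 stood at 8.33, 8.14, 7.74, 9.61, 6.96, 10.1 and 5.27 TPM in deletion 1 to 7 and at 0.90, 0.91, 0.92, 2.41 and 0.65 TPM in controls 1 to 5. HOXA11, its neighbour, ran from 11.6 to 14.9 TPM against 4.47 to 8.91 TPM, and HOXA9 from 58.8 to 77.4 TPM against 37.1 to 52.0 TPM. Control 5, with a chromosome 7 median of -0.13, had the lowest or next to lowest control value of HOXA13, HOXA11, HOXA10 and HOTAIRM1. With 1 library left out 7 (without control 2) to 10 (without deletion 7) members rose.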

How the data were processed

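Stranded mRNA libraries (KAPA kit, per the labels' protocols) of RWPE-1 cells were compared, 7 with the deletion and 5 controls. The authors deposited TPM values per gene, and the submitters' processing notes name Trimmomatic 0.35, STAR 2.5.2b, featureCounts 1.5.1, RSEM 1.3.0 and DESeq2 1.14.1, on GRCh37, without roles. TPM holds no counts, so depth is unknown and no counting interval is given. The authors' deposited table of the same comparison gives log2 fold changes and adjusted p-values, in columns named as DESeq2 names them, per the file headers. It was used only to compare calls.

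Genes at 1 TPM in at least 5 libraries entered limma 3.58.1 (R 4.3.3) on log2(TPM + 1), with a mean-variance trend, two-sided, without a replicate block. Every adjusted p comes from it, by the Benjamini-Hochberg method over all 14186 genes, and 0.05 was the threshold. The script was tested on simulated data. Symbols came from a gene table (13921 of the tested genes matched), chromosomes from the RefSeq table of GRCh38.p14 (12952 matched), and 41 duplicate rows of the Y pseudoautosomal regions were left out.

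Genes named were the 15 largest called differences each way outside chromosome 5 and HOXA whose groups did not overlap and whose higher mean reached 5 TPM, up to 6 called members of each list and direction (2 of lowest p where none was called), HOXA members, and on chromosome 5 the 5 most negative and any higher. The members, lists and markers were chosen with earlier results of these data known. Alternatives were other pseudocounts, filters, scalings, variance models, a replicate block and leaving out libraries. Some results are not reported here.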

Additional observations from a re-analysis of the deposited data

Results flagged for a closer look

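In 5 of 60 sets of values (the deletion or control libraries of the 30 most changed genes) 1 library stood far from its group, and so it did in 4 of 46 sets of chromosome medians, where only libraries at least 0.1 from the median of the others of their group were considered. The cutoff for the genes has a nominal level of 1 in 20 sets, but the rate for genes chosen as these were was not computed. For the chromosomes, with that minimum shift, no such rate was computed either. ADGRL2 stood at 5.19 TPM in control 5, against at most 0.47 TPM in the other controls. LHX6 stood at 24.31 TPM and FLRT3 at 10.97 TPM in control 3, each above the other controls. Deletion 4 had the highest LAMB2 value of its group, 60.31 TPM, and the lowest BIRC3 value, 2.1 TPM.

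Deletion 4 also stood apart by chromosome, with medians of 0.439 on chromosome 10, -0.472 on chromosome 15 and 0.042 on chromosome 22, all as differences from the control mean in log2(TPM + 1). On chromosome 22 control 4 stood at -0.311.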

How the results depend on the processing

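Outside chromosome 5 and HOXA the main analysis called 902 genes higher and 234 lower, and over all genes 917 and 547. Median-ratio scaling gave 598 higher genes over all and, outside, 587 higher and 353 lower. Leaving chromosome 5 out of the scaling and the test, which by construction drops its 313 lower genes, gave 607 higher and 209 lower genes in all, 598 of the higher ones outside HOXA. With 6 deletion libraries and controls 1 to 3 there were 361 lower genes over all and 134 outside. Leaving out 1 library gave 625 to 1155 higher and 430 to 843 lower genes over all, and 613 to 1139 higher and 159 to 524 lower outside, each highest without control 3. Fits that left out libraries or chromosome 5 held fewer libraries or genes. The causes of the differing counts were not tested.

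The replicate numbers did not pair the libraries: same-numbered deletion and control libraries had correlations of 0.054, 0.004, -0.176, 0.142 and 0.022, and not every deletion library correlated best with the control of its number. The fit with the replicate block gave 205 higher and 244 lower genes over all, and 199 and 69 outside.

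Of 4491 values of single genes under another setting 3768 kept their side of the threshold, 707 fell below it and 16 passed it. Among values called in the main analysis or under the other setting 0 changed sign. Sign changes of genes called in neither were not counted. Of 2056 list counts 1608 stayed within 1.5 times, 103 were above and 345 below. Of the 183 called genes named, 126 were called with any 1 library left out, and 71 in every setting in which they were tested. With the replicate block 84 of the 183 were called, and losses under that setting are not listed gene by gene above. Depth could not be assessed from TPM, which limits statements on genes near 1 TPM.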

Other observations

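The series also holds RWPE-1 libraries transfected with eGFP, which were not part of the comparison. Their mean lay nearer to the deletion mean than to the control mean for 291 of the 902 genes called higher outside chromosome 5 and HOXA (32.3%), for 79 of the 234 called lower (33.8%) and for 131 of the 313 lower genes of chromosome 5 (41.9%). Among the most changed genes this was so for MAL2, PRSS3, PODXL, FLRT3, TMEM200B and TFPI2 on the higher side and DAPK1, FBLN2 and METTL7A on the lower side. These cells were handled differently from both groups, and no test was made.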
